A study of Mus musculus with 5 samples.

Results

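The mouse mitochondrial genome carries 37 genes, and all 37 were among the 40930 features counted in single cells from the islets of non-pregnant mice. They were chosen by name, as every feature that starts with mt-. They are 13 protein-coding genes, 2 ribosomal RNA genes and 22 transfer RNA genes. The cells came from dissociated islets of C57BL/6 mice that were not pregnant, were viable when loaded, and were taken through inDrop, a droplet method that captures polyadenylated RNA and marks each captured molecule with a unique molecular identifier (UMI). Neither the age of the animals nor the number pooled is stated. The series also has 2 libraries from pregnant and 2 from postpartum mice. Their tables list 6695 features each, of which 0 start with mt-, so every value here comes from 1 library. Without a second library there was no test: intervals are 95% exact intervals that cover counting error only, and cells of 1 library are not replicates of a condition.

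Mitochondria keep a small circular genome of their own, which is transcribed from both strands into long precursors. Transfer RNAs sit between most of the other genes, and cutting them out releases the ribosomal and messenger RNAs, most of which then gain a short poly(A) tail. The proteins are core subunits of the respiratory chain and of ATP synthase, which are completed by many subunits encoded in the nucleus. In pancreatic beta cells, ATP made by this chain couples glucose metabolism to insulin release.

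The 845 cells analysed held 2556309 UMIs, with 1000 to 10784 in a cell and a median of 2553. Hormone transcripts (Ins1, Ins2, Gcg, Sst, Ppy, Pyy, Iapp and Ghrl) took 32.7% of them. Each cell was put in a class by its largest hormone: insulin-led (Ins1 plus Ins2, 678 cells), glucagon-led (Gcg, 94), somatostatin-led (Sst, 39) or PP-led (Ppy, pancreatic polypeptide, 34). These are classes by rule, and the other marker genes of each cell type were compared with them. Beta cell markers other than hormones took 0.374% of the non-hormone UMIs of insulin-led cells and 0.0551% or less in the other classes. Alpha cell markers took 1.71% in glucagon-led cells against 0.257% or less elsewhere, and delta cell markers 0.443% in somatostatin-led cells against 0.0805% or less. Gamma cell markers were 0.249% in PP-led cells and almost as high, 0.217%, in glucagon-led cells. The class rested on a narrow lead, the largest hormone being less than 2 times the second, in 14 insulin-led, 10 glucagon-led, 5 somatostatin-led and 6 PP-led cells.

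Sequence stretches of the genes that the counts turn on are given first, from the GENCODE M21 transcripts on the GRCm38 build, read 5′ to 3′ along each gene. The coordinates are those of the whole gene. Some neighbours share bases, so a read there can belong to either gene. The last 60 bases of mt-Atp8 (chrM:7766-7969, plus strand) and of mt-Nd4l (chrM:9877-10173, plus strand) are shown because they run into mt-Atp6 and mt-Nd4, and the last 60 of mt-Nd5 (chrM:11742-13565, plus strand) and mt-Nd6 (chrM:13552-14070, minus strand) because their ends face each other. Capitals mark the shared bases.
mt-Atp8: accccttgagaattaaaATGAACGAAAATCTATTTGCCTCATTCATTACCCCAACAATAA
mt-Nd4l: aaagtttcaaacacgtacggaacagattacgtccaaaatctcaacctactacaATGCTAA
mt-Nd5: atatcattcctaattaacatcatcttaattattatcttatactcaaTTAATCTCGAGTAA
mt-Nd6: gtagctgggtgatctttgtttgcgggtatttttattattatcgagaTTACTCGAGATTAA
The shared stretch is 43 bases in mt-Atp8, 7 in mt-Nd4l and 14 between mt-Nd5 and mt-Nd6, where the capitals of one line are the reverse complement of those of the other.

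The last 30 bases are shown for the gene with most UMIs in each of the complexes: mt-Nd2 of complex I (chrM:3914-4951), mt-Cytb of complex III (chrM:14145-15288), mt-Co2 of complex IV (chrM:7013-7696) and mt-Atp6 of complex V (chrM:7927-8607), all on the plus strand. Capitals mark the last codon, whole or in part.
mt-Nd2: ctacccctagccccccaactaattaccTAG
mt-Cytb: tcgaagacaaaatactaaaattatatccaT
mt-Co2: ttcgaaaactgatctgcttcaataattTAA
mt-Atp6: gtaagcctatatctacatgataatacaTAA
The gene mt-Cytb ends in a lone T, and it is the poly(A) tail added to the messenger RNA that completes such a stop codon. These are annotated gene ends, near which a poly(A)-primed method starts to read. The last 2 bases of mt-Nd2 are shared with the transfer RNA gene mt-Tw on the same strand, so its messenger RNA can end before the printed TAG does.

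The ribosomal RNAs mt-Rnr1 (12S, chrM:70-1024) and mt-Rnr2 (16S, chrM:1094-2675) are shown around their longest run of A, in capitals, with 25 bases either side, since primers made of T can also anneal to A runs inside an RNA. The threonine transfer RNA gene mt-Tt (chrM:15289-15355) is shown whole, with its last 3 bases in capitals, as the transfer RNA gene with most UMIs.
mt-Rnr1: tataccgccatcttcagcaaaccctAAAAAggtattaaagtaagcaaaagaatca
mt-Rnr2: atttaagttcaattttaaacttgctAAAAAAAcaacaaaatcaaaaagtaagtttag
mt-Tt: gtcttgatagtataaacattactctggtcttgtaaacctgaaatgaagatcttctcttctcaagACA
The longest run is 7 bases in mt-Rnr2 and 5 in mt-Rnr1.

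The mitochondrially encoded genes took 108692 UMIs, 4.25% of all UMIs (4.23% to 4.28%) and 6.31% of the non-hormone UMIs (6.28% to 6.35%). Messenger RNAs made up most of this: the 13 protein-coding genes held 86.4% of the mitochondrial UMIs, the 2 ribosomal RNA genes 13.5% and the 22 transfer RNA genes 0.0497%. Of the 37 genes, 31 had at least 1 UMI, and the 12 genes with at least 1000 UMIs held 99.4%. By strand the split was steeper still. The 28 plus-strand genes held 108666 UMIs and the 9 minus-strand genes 26.

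**Figure D1:**
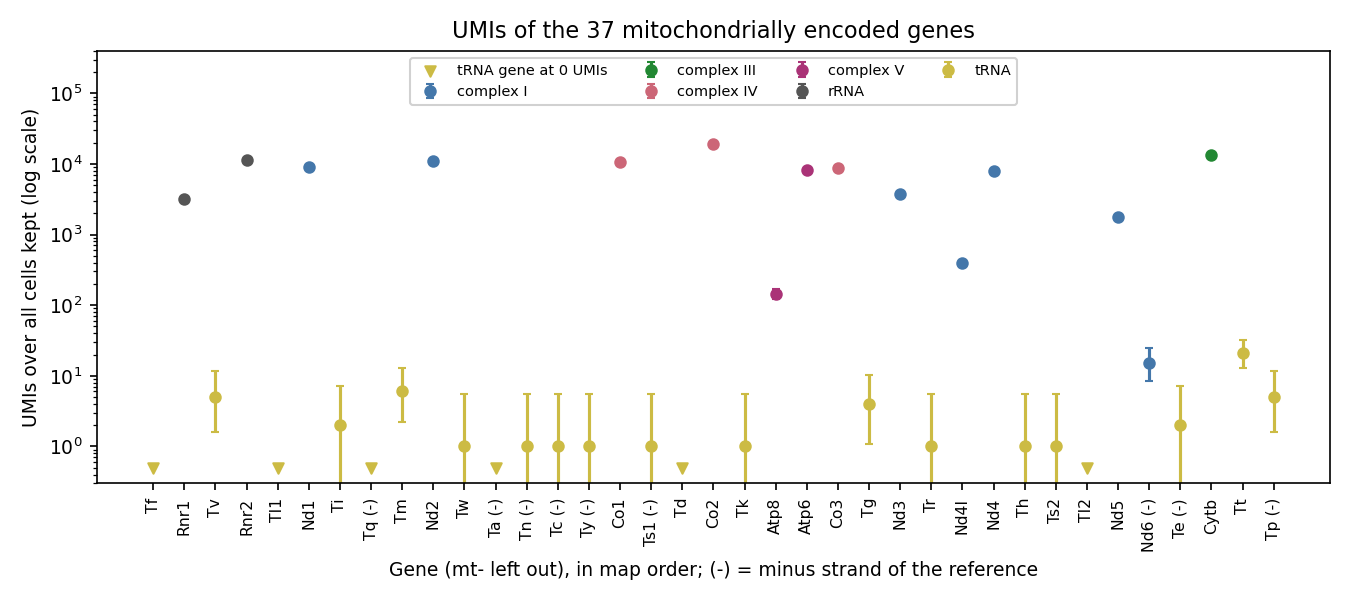
UMIs of each of the 37 genes summed over 845 cells (log scale), in the order of the mitochondrial map and coloured by role, with 95% exact Poisson intervals. Triangles mark the 6 transfer RNA genes at 0 UMIs, drawn below the axis value of 1 only to be visible. The 12 genes above 1000 UMIs stand apart from mt-Nd4l (389), mt-Atp8 (146), mt-Nd6 (15) and the transfer RNA genes (21 or fewer).

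Complex I, the NADH dehydrogenase that feeds electrons into the chain, has 7 members here, with 31.1% of the mitochondrial UMIs (30.9% to 31.4%). Its best covered subunits were mt-Nd2 with 10880 UMIs, mt-Nd1 with 9154 and mt-Nd4 with 7866. These 3 held most of the complex I UMIs and were found in 95.9%, 95.4% and 96.3% of cells. The small subunit gene mt-Nd3 had 3782 UMIs and mt-Nd5, the longest of the 37 genes at 1824 bases, had 1755. The next plus-strand gene after mt-Nd5 is mt-Cytb, from base 14145, with mt-Nd6 and mt-Te between them on the minus strand. If the RNA of mt-Nd5 runs past its annotated end, a method that reads from the 3′ end can miss it. This was not tested, so the count does not measure its level. Scaled to length, mt-Nd3 (10868 UMIs per kb) stood beside mt-Nd2 (10482 per kb), whereas mt-Nd5 reached 962 per kb. Since a UMI marks a captured molecule and not a length of RNA, values per kb here and below do not rank genes by abundance. The other two subunits were low: mt-Nd4l had 389 UMIs and mt-Nd6, the only protein-coding gene on the minus strand, had 15 (8.40 to 24.7) in 12 cells. All 15 UMIs of mt-Nd6 fell in insulin-led cells, and a count of 0 in the other classes was not distinguishable from the same level at their depth.

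Complex III, which passes electrons to cytochrome c, has 1 member, the cytochrome b gene mt-Cytb, with 13178 UMIs (12.1% of the mitochondrial UMIs, 11519 per kb). Complex IV, cytochrome c oxidase, led all roles with 35.6% (35.3% to 35.8%). Its subunit genes were mt-Co2 with 19071 UMIs, mt-Co1 (the catalytic core) with 10694 and mt-Co3 with 8880. The gene mt-Co2 was first on either scale: it held 17.5% of the mitochondrial UMIs and 27882 UMIs per kb, while the next per kb, mt-Atp6, had 11925. At least 1 mt-Co2 UMI was present in 839 of the 845 cells. Complex V, the ATP synthase, held 7.61%, nearly all of it from mt-Atp6 (8121 UMIs), which lines the proton path, and little from mt-Atp8 (146 UMIs).

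The overlapping pairs, each on a shared messenger RNA, were counted very unequally. The gene mt-Atp8 took 1.77% (1.49% to 2.07%) of the UMIs of mt-Atp8 plus mt-Atp6. The gene mt-Nd4l took 4.71% (4.27% to 5.19%) of those of mt-Nd4l plus mt-Nd4. In both pairs the gene at the 5′ end of the shared messenger RNA was the low one, and a method that reads from the 3′ end does not measure how much of that coding sequence was present. Between mt-Nd6 and mt-Nd5, on opposite strands, mt-Nd6 took 0.847% (0.475% to 1.39%). Whether the authors' counting used strand is not stated.

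The ribosomal RNAs, which build the mitochondrial ribosome, were unequal as well. The 16S gene mt-Rnr2 had 11489 UMIs (10.6% of the mitochondrial UMIs, 7262 per kb) and the 12S gene mt-Rnr1 3218 (2.96%, 3370 per kb). Both share one precursor, with the valine transfer RNA gene mt-Tv between them. The 22 transfer RNA genes together had 54 UMIs. Only mt-Tt passed 10 UMIs, with 21 (exact interval 13 to 32.1) in 20 cells, and it begins on the base after the end of mt-Cytb. Another 4 had 4 to 6 UMIs, 11 had 1 or 2, and 6 (mt-Tf, mt-Tl1, mt-Tq, mt-Ta, mt-Td and mt-Tl2) had 0. The exact interval of a count of 0 is 0 to 3.69 UMIs. For a poly(A)-primed method these counts do not measure mature transfer RNA.

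The mitochondrial share of the non-hormone UMIs differed by class, highest in insulin-led and lowest in somatostatin-led cells. Pooled over the 678 insulin-led cells it was 6.79% (6.75% to 6.83%), with 0.112%, 6.76% and 22.5% as the lowest, median and highest cell. In the 94 glucagon-led cells it was 3.81% (3.71% to 3.90%), with 0.753%, 3.72% and 9.35%. In the 39 somatostatin-led cells it was 3.37% (3.24% to 3.51%), with 0.824%, 3.27% and 7.11%. The 34 PP-led cells lay between, at 5.12% (4.94% to 5.29%), with 2.39%, 5.08% and 13.2%.

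The ranges of single cells overlapped between all 4 classes. Below the insulin-led median lay 91 of 94 glucagon-led, 37 of 39 somatostatin-led and 31 of 34 PP-led cells, and 104 of 678 insulin-led cells lay below the glucagon-led median. Of the 119 cells above 10%, 117 were insulin-led and 2 PP-led. Depth and hormone content differed less than the shares did: the median UMIs per cell were 2652.5, 2261.5, 2169 and 2662.5 in insulin-led, glucagon-led, somatostatin-led and PP-led cells, and hormones took 33.0%, 27.4%, 30.9% and 39.3% of all UMIs. As a share of all UMIs, hormones included, the order was the same, at 4.55%, 2.76%, 2.33% and 3.11%. Thinned to 1000 UMIs a cell, the non-hormone shares were 7.08%, 3.92%, 3.58% and 5.33% in that order. Thinning draws at random within a cell and leaves its expected share unchanged. It therefore cannot show what part depth has in the class order, which was not tested. The share per cell cannot tell more mitochondrial RNA from less RNA of other genes.

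**Figure D2:**
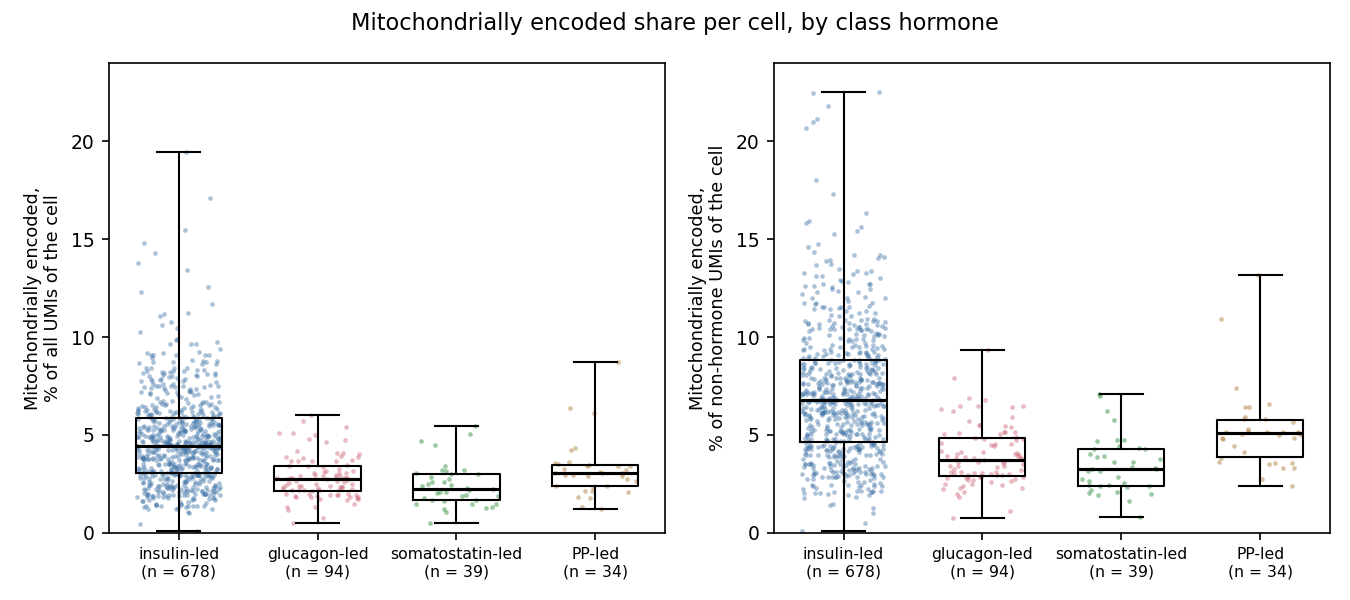
Mitochondrially encoded UMIs as a percentage of all UMIs (left) and of non-hormone UMIs (right), 1 point per cell, by class. Boxes give the quartiles and median over cells, and whiskers the lowest and highest cell. Insulin-led cells had a median of 6.76% on the right-hand scale and hold all 14 cells above 15%.

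Several other measures also differed between the classes. Gm42418, an annotated gene that holds cytoplasmic ribosomal RNA sequence, took 1.83% of the non-hormone UMIs of insulin-led cells, 0.923% in glucagon-led, 0.118% in somatostatin-led and 0.198% in PP-led cells. In glucagon-led cells 1 cell held 1046 of the 1456 Gm42418 UMIs, and without it the class was at 0.265%, with a mitochondrial share of 3.83%. With only cells in which Gm42418 was under 0.6% of the non-hormone UMIs, a limit chosen after seeing the data, the mitochondrial share was 5.39% in 341 insulin-led cells, 3.78% in 84 glucagon-led cells, 3.37% in all 39 somatostatin-led cells and 5.06% in 32 PP-led cells. The order of the classes was the same, but the lead of insulin-led over PP-led cells was small there. The 25 insulin-led cells with under 5% of their UMIs on insulin were not left out separately. They had 0.234% Gm42418 and a mitochondrial share of 2.43%, so they can weigh more among the 341 cells than in the whole class. A list of 12 dissociation and heat shock genes took 0.191%, 0.295%, 0.664% and 0.415% in the same class order. Across single cells within each class, its Pearson r with the mitochondrial share was 0.0171, 0.0417, 0.472 and -0.0210 in that order. The nuclear RNAs Malat1, Meg3 and Neat1 took 0.265%, 0.335%, 0.261% and 0.284%. The part of these measures in the class differences was not tested.

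A group of 28 cells had less than 5% of their UMIs on the hormone that classed them, 25 of them insulin-led by the rule. Their mitochondrial share was 2.64% (2.52% to 2.76%), against 6.47% in the other 817 cells. Lists of 8 acinar, 6 endothelial, 7 macrophage and 6 mesenchymal markers took 0.893%, 0.444%, 0.160% and 0.267% of their pooled non-hormone UMIs. The median per cell was 0 for the acinar, macrophage and mesenchymal lists, so these pooled shares came from a part of the cells. In insulin-led cells with at least 5% hormone the lists took 0.0188%, 0.0281%, 0.00949% and 0.00475%. There 8, 6, 6 and 6 of the markers had a UMI, so detection alone did not set the 28 cells apart. The cell with the lowest mitochondrial share of all, 0.112%, was 1 of the 28, with 2 mitochondrial UMIs of 1823 and 0.933% insulin. Without the low-hormone cells, the 653 insulin-led cells had a mitochondrial share of 6.98% (6.94% to 7.03%), and the 25 left out had 2.43%.

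Gene by gene, nearly all measured members were lower in glucagon-led and somatostatin-led than in insulin-led cells, and fewer were in PP-led cells. Levels are given as CPM, the UMIs of a gene pooled over a class and scaled to the same total of non-hormone UMIs for each class. They were compared where a gene had at least 50 UMIs in the classes compared, which 14 of the 37 members had. Those that missed this limit were mt-Nd6 and the 22 transfer RNA genes. Since insulin-led cells hold most UMIs, a member could pass through them alone, so these counts describe the measured members and not all 37.

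In glucagon-led cells, 12 of the 14 measured members were at least 1.5-fold lower, while 28.6% of all 6028 features compared were. Their median ratio was 0.594, against 0.938 over all features, and it lay below 1 for all 14. The ribosomal RNA gene mt-Rnr2 had the lowest ratio, 0.380 (0.344 to 0.417), from 2833 CPM against 7464. The messenger RNA with the lowest ratio was mt-Co1 at 0.425 (0.386 to 0.467), from 2883 against 6790 CPM. Its complex IV partner mt-Co2 stood at 0.607 (0.571 to 0.645). The smallest decreases were in complex I, at 0.756 (0.628 to 0.904) for mt-Nd5 and 0.687 (0.632 to 0.747) for mt-Nd1. With the limit on Gm42418 the count fell to 3 of 14 (mt-Nd4l, mt-Co1 and mt-Rnr2), with a median ratio of 0.705, while 30.2% of all features were at least 1.5-fold lower. There mt-Rnr1 moved from 0.436 to 0.696 and mt-Rnr2 to 0.569.

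In somatostatin-led cells, 13 of the 14 were at least 1.5-fold lower, beside 32.2% of 5762 features. The median ratio was 0.487, against 0.928 over all features, and mt-Atp6 had the highest, 0.684 (0.598 to 0.780). The ribosomal RNAs were again low, at 0.263 (0.186 to 0.362) for mt-Rnr1 and 0.287 (0.243 to 0.338) for mt-Rnr2. Of the messenger RNAs, mt-Nd5 was lowest among those with over 10 UMIs in this class, at 0.341 (0.222 to 0.502). The ratios of mt-Nd4l (0.176, 0.0361 to 0.519) and mt-Atp8 (0.499, 0.101 to 1.49) rested on 3 UMIs each. With the limit on Gm42418 the median was 0.575, with 11 of 14 at least 1.5-fold lower beside 31.8% of all features, and mt-Rnr1 stood at 0.474 and mt-Rnr2 at 0.497.

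In PP-led cells, 3 of the 14 were at least 1.5-fold lower, a share below the 34.6% of 5751 features, and 1 was at least 1.5-fold higher, beside 22.6% of features. The 3 were mt-Nd5 at 0.393 (0.258 to 0.574), mt-Rnr2 at 0.447 (0.388 to 0.513) and mt-Rnr1 at 0.453 (0.344 to 0.586). The 1 was mt-Atp8 at 1.84 (0.863 to 3.51), from 10 UMIs, an interval that includes 1. The genes mt-Nd1 (0.975), mt-Nd2 (0.979) and mt-Atp6 (1.101) were near the insulin-led level, with intervals that include 1. The median ratio was 0.705 against 0.908 over all features. With the limit on Gm42418 only mt-Nd5 was at least 1.5-fold lower (0.415), beside 34.3% of all features, while mt-Rnr2 stood at 0.775, mt-Rnr1 at 0.850, mt-Nd1 at 1.16 and mt-Nd2 at 1.098. When cells with under 10% of UMIs on the class hormone were left out, 8 of the 14 were at least 1.5-fold lower, beside 34.5% of all features.

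**Figure D3:**
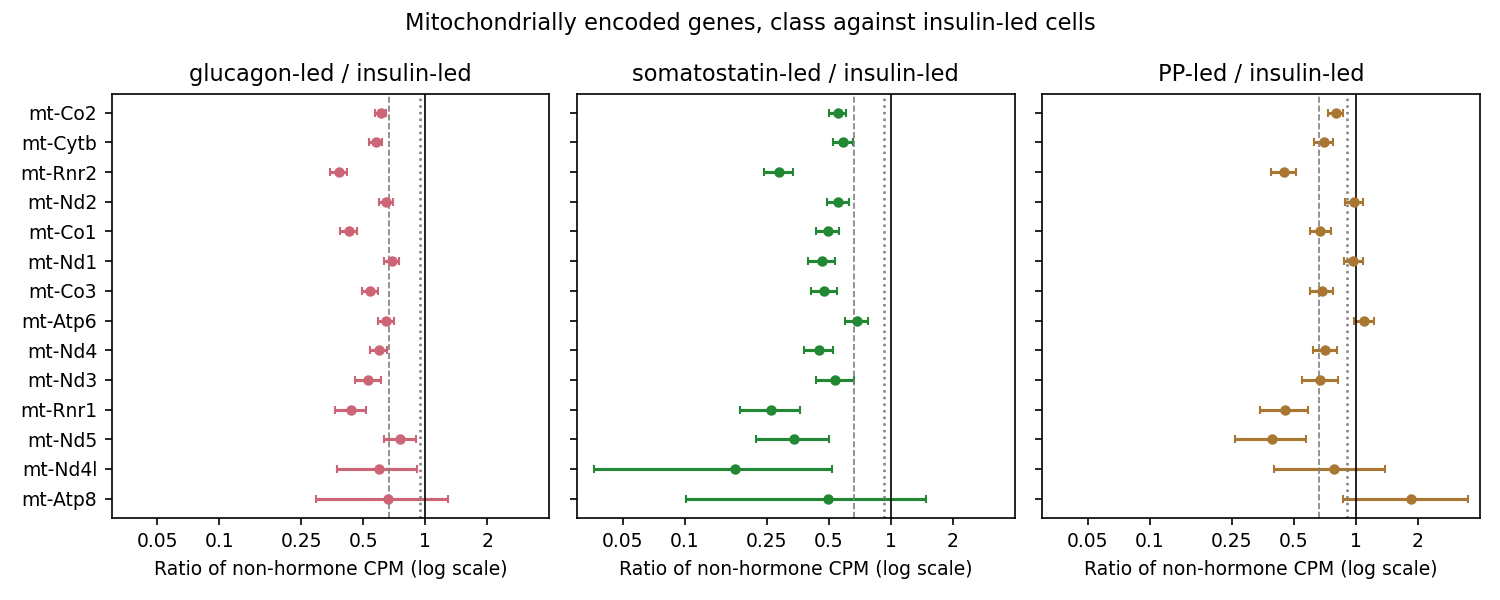
Ratio of CPM to insulin-led cells (log scale) for the 14 measured members in each of the other classes, with 95% exact intervals for counting error. The solid line is 1, the dashed line a 1.5-fold decrease and the dotted line the median of all features compared. The 2 ribosomal RNAs lie left of most messenger RNAs in all 3 panels, and mt-Nd1, mt-Nd2 and mt-Atp6 lie near 1 in PP-led cells alone.

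The make-up of the mitochondrial UMIs also differed by class. The ribosomal RNAs were 14.1% (13.8% to 14.3%) of the mitochondrial UMIs of insulin-led cells, against 9.82% (9.08% to 10.6%) in glucagon-led, 7.99% (6.92% to 9.16%) in somatostatin-led and 8.37% (7.44% to 9.39%) in PP-led cells. With the limit on Gm42418 they were 10.2% (9.86% to 10.4%), 8.61% (7.88% to 9.39%), 7.99% and 8.56% (7.58% to 9.62%), so most of the gap was absent there. Without the ribosomal RNAs, the mitochondrial shares of the non-hormone UMIs were 5.83%, 3.43%, 3.10% and 4.69%.

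Among messenger RNAs, mt-Co1 was 7.57% (6.92% to 8.27%) of the mitochondrial UMIs of glucagon-led cells, below the interval of 9.82% to 10.2% in insulin-led cells. Complex V held 7.38% in insulin-led, 8.51% in glucagon-led, 10.1% in somatostatin-led and 10.9% in PP-led cells, with mt-Atp6 as nearly its whole count. The gene mt-Nd1 was 10.1% and 10.7% in glucagon-led and PP-led cells but 8.26% and 7.69% in insulin-led and somatostatin-led cells. The leading gene was mt-Co2 in every class, at 17.4% to 19.4%. In each class it was followed by mt-Cytb, apart from PP-led cells, where mt-Nd2 (12.7%) came second with an interval (11.6% to 14.0%) that overlaps that of mt-Cytb (10.1% to 12.3%).

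**Figure D4:**
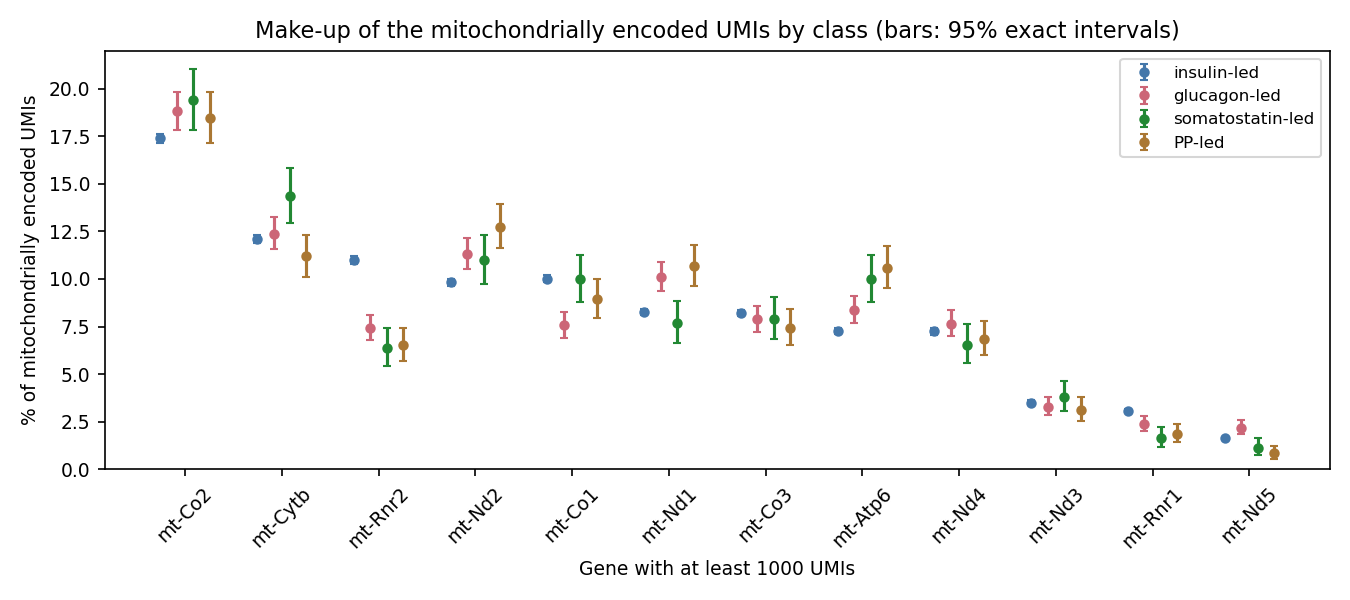
Share of the mitochondrially encoded UMIs taken by each of the 12 genes with at least 1000 UMIs, by class, with 95% exact binomial intervals. Insulin-led cells have the highest point at mt-Rnr2 (11.0%) and mt-Rnr1 (3.07%), and glucagon-led cells the lowest at mt-Co1 (7.57%).

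Cells of 1 class differed from each other by far more than counting allows. The SD of the share over insulin-led cells was 3.34 percentage points, where binomial counting at the cells' own depths gives 0.638. In glucagon-led cells it was 1.48 against 0.511, in somatostatin-led cells 1.41 against 0.489, and in PP-led cells 2.09 against 0.575. Within insulin-led cells the pooled share was lower in groups with more depth and in groups with more insulin. In 4 groups of near equal size, from the shallowest to the deepest cells, the share was 7.78%, 7.14%, 6.68% and 6.47%. In 4 such groups of rising insulin share of all UMIs it was 7.13%, 7.07%, 6.70% and 6.13%. The lowest of these insulin groups holds the 25 insulin-led cells with under 5% insulin, whose mitochondrial share was 2.43%. They pull its value down, so the fall across the insulin groups is understated. In glucagon-led cells the 4 depth groups had 4.62%, 3.72%, 3.63% and 3.71%.

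The spread among insulin-led cells followed Gm42418 more closely. In 4 groups of rising Gm42418 share (0.0725%, 0.307%, 1.89% and 5.39% of non-hormone UMIs), the mitochondrial share was 4.82%, 6.03%, 8.18% and 8.51%. The ribosomal RNAs went up with it, from 8.41% to 11.6%, 15.2% and 18.6% of the mitochondrial UMIs. From the lowest to the highest of these groups, mt-Rnr1 was 4.42-fold and mt-Rnr2 3.77-fold higher in CPM, while the messenger RNAs ranged from 1.34-fold (mt-Nd2) to 1.87-fold (mt-Nd3). Over the 678 cells the mitochondrial share and the Gm42418 share had a Pearson r of 0.354 and a Spearman rho of 0.509, both taken from the same library and over the same denominator. Glucagon-led cells had 3.50%, 3.78%, 3.83% and 4.25% over 4 groups of their own by Gm42418.

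Insulin-led cells with much Gm42418 also held more of the other hormones. Where insulin was at least 95% of the UMIs on Ins1, Ins2, Gcg, Sst and Ppy (327 cells), the mitochondrial share was 5.72% and Gm42418 0.521%. Where it was 70% to 95% (325 cells), they were 8.09% and 3.26%. Where it was under 70% (26 cells), they were 4.62% and 1.14%, so neither rose steadily with the other hormones. Both measures together separated 4 groups of insulin-led cells. Among cells with Gm42418 at 0.6% or more, the non-ribosomal mitochondrial share was 6.91% in 68 cells with at least 95% insulin and 6.97% in 269 cells with less. Among cells with Gm42418 under 0.6% it was 4.59% in 259 cells with at least 95% insulin and 5.67% in 82 cells with less. By these values the share was higher with more Gm42418 within either range of insulin. The 25 insulin-led cells with under 5% of their UMIs on insulin were kept in these groups. They had a mitochondrial share of 2.43%, Gm42418 at 0.234% and a median of 78.4% insulin on the scale above. How far they move the value of the 82 cells was not tested. The part of Gm42418 and of the other hormones in this spread was not tested.

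**Figure D5:**
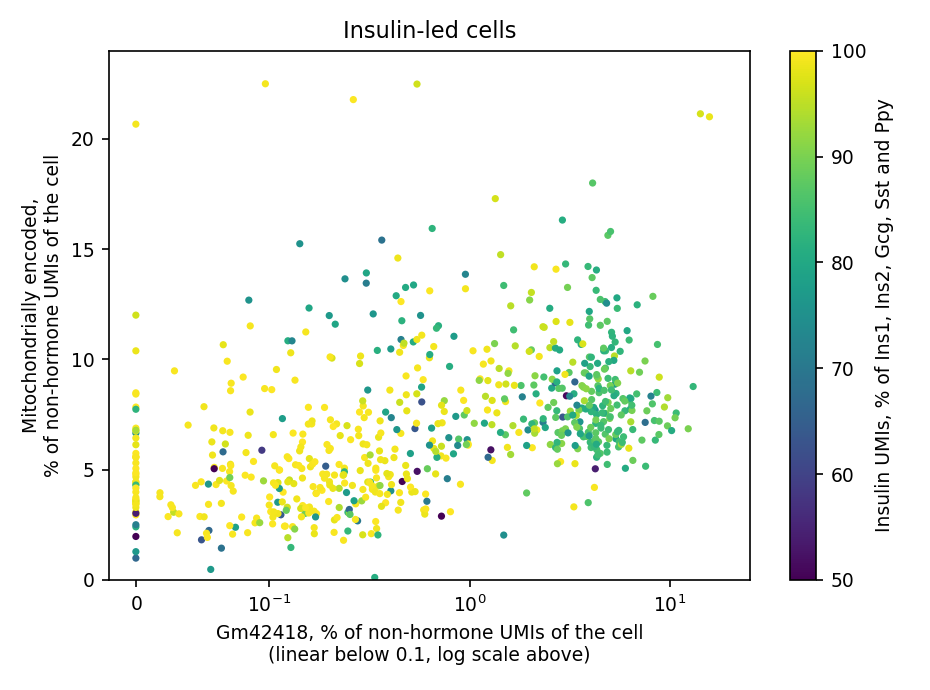
Mitochondrially encoded share of non-hormone UMIs against the Gm42418 share in 678 insulin-led cells (x axis linear below 0.1 and log above), coloured by insulin as a percentage of Ins1, Ins2, Gcg, Sst and Ppy UMIs. Cells with Gm42418 at 0.6% or more (337 cells, pooled share 8.38%) lie mostly above 5%, and many of them have insulin at 80% to 90%. Of the 6 cells above 20%, 4 lie below 0.6% on the x axis and 2 above 14%.

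Over insulin-led cells most of the messenger RNAs varied together, apart from mt-Nd5. Over the 66 pairs of the 12 genes with at least 1000 UMIs, Pearson's r of their shares of non-hormone UMIs ranged from 0.0497 (mt-Rnr1 with mt-Nd1) to 0.654 (mt-Co2 with mt-Co3), with a median of 0.386. The 36 pairs of messenger RNAs without mt-Nd5 had 0.334 to 0.654, and the 9 pairs of mt-Nd5 with another messenger RNA 0.0881 to 0.181. The 2 ribosomal RNAs had 0.501 with each other and 0.0497 to 0.200 with the messenger RNAs. All pairs share a library, a denominator and the depth of the cell, and the genes with fewer UMIs have lower values from counting alone.

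The nuclear genes of the same complexes took closer shares in the 4 classes. Of 84 such genes in the table, 80 had a UMI, and together they took 1.75% (1.73% to 1.77%) of the non-hormone UMIs in insulin-led cells, 1.53% (1.47% to 1.59%) in glucagon-led, 1.72% (1.63% to 1.82%) in somatostatin-led and 1.71% (1.61% to 1.81%) in PP-led cells. In glucagon-led cells 21 of the 76 measured were at least 1.5-fold lower and 4 higher, with a median ratio of 0.841. In somatostatin-led cells 14 were lower and 8 higher (median 0.911), and in PP-led cells 15 and 9 (median 0.969). These shares of lower genes were at or below those of all features (28.6%, 32.2% and 34.6%). The shares of higher genes were also below those of all features (16.3%, 21.5% and 22.6%). Over all features the median ratios were 0.938, 0.928 and 0.908. The median of the nuclear genes was thus lower than that in glucagon-led and somatostatin-led cells and higher in PP-led cells. The 3 with most UMIs were Cox8a and Cox6c, small subunits of complex IV, with 1855 and 932 UMIs, and Atp5g1, which encodes the c subunit of ATP synthase, with 1036. Across single insulin-led cells, the nuclear and the mitochondrial shares had a Pearson r of 0.0501.

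Nuclear genes for the upkeep, transcription and processing of mitochondrial nucleic acid were sparse. All 38 of the list had a UMI, 2117 in total, or 0.124% of the non-hormone UMIs in insulin-led, 0.119% in glucagon-led, 0.0979% in somatostatin-led and 0.145% in PP-led cells. Those intervals overlap (0.118% to 0.130%, 0.102% to 0.137%, 0.0760% to 0.124% and 0.117% to 0.179%). The 3 with most UMIs were Rexo2, an exonuclease of short RNAs, with 390, Grsf1, an RNA-binding protein of mitochondrial RNA granules, with 262, and Lrpprc, which stabilises mitochondrial messenger RNAs, with 175. Of the 10 measured in glucagon-led cells 2 were at least 1.5-fold lower and 1 higher. Of the 9 measured in somatostatin-led cells 5 were lower and 0 higher, and of the 9 in PP-led cells 1 was lower and 4 higher. Of all features, 28.6%, 32.2% and 34.6% were lower and 16.3%, 21.5% and 22.6% higher in these 3 classes, and with 9 or 10 genes measured nothing was read from the difference.

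Reads of some members could also match nuclear copies of mitochondrial sequence. In the GENCODE M21 transcripts, 12 members matched 19 other annotated genes at 85% identity or more over at least 100 bases. Of these, 1 was in the table: Gm20594, which matched mt-Rnr2 at 88.4% over 439 bases and had 511 UMIs. How the authors' counting placed such reads is not stated.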

How the data were processed

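The deposited table of the non-pregnant library gave a normalized signal per feature and cell, scaled by the authors so that each of the 847 cells summed to 3023.9894. All nonzero values were whole multiples of the value of 1 UMI in that cell (within 0.1), which gave back whole UMI counts (2561319 in all). The submitters' processing notes name Partek 8.0, Bowtie 1.1.1 and the builds GRCm38 and mm10, without their roles. Cell names are running numbers, so barcodes shared between libraries could not be counted. Scrublet within scanpy 1.11.5 called 2 doublets, which were removed. That share is low, and a doublet of 2 hormone classes may remain. No cell had under 1000 UMIs.

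The members and gene lists were chosen with earlier results of these data known. Pooled UMI shares have exact binomial (Clopper-Pearson) intervals, counts exact Poisson intervals. With 1 library no count model was run, and depth per cell limits the precision of single cells. Ratios used features with at least 50 UMIs in the 2 classes and a fold of 1.5. The 13 protein-coding and 2 ribosomal RNA genes are named one by one, transfer RNA genes from 10 UMIs on, the 3 genes with most UMIs of each nuclear list, and lowest and highest ratios. The 6 transfer RNA genes at 0 were named after their values were seen. UMI recovery and calls were tested on simulated data. BLAST 2.17.0 matched members to other transcripts, scipy 1.17.1 gave intervals.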

Additional observations from a re-analysis of the deposited data

How the results depend on the processing

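No paired analysis was possible because 1 library holds these features, and for the same reason no replicate could be left out. Over the 12 settings of the non-hormone share, insulin-led cells had the highest, PP-led the next and somatostatin-led the lowest value. Of 111 alternative values, 64 stayed within the counting interval of the value reported, or within 1.5 times for a count and 1.1 times for a median ratio, and 47 moved. Only the median ratios were scored for a change of direction, and none of them changed. Counts did move against the share of all features. In glucagon-led cells 12 of 14 members were lower beside 28.6%, but 3 of 14 beside 30.2% with Gm42418 under 0.6%. In PP-led cells it was 3 of 14 beside 34.6%, but 8 of 14 beside 34.5% with the class hormone at 10% of UMIs or more. A limit of 1000 UMIs removed no cell. Keeping the called doublets added no glucagon-led, somatostatin-led or PP-led cell, and the Gm42418 limit removed no somatostatin-led cell. Such values could not move, and they are counted among the 64. The 12 settings include the main one and the limit of 1000 UMIs.

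The share of all UMIs was 4.30% without Gm42418 in the total, 4.37% as a mean over cells and 4.16% in cells with at least 2000 UMIs. By class, the non-hormone share as a mean over cells was 7.09% in insulin-led and 3.96% in glucagon-led cells. Thinned to 1000 UMIs it was 7.08%, 3.92%, 3.58% and 5.33% in insulin-led, glucagon-led, somatostatin-led and PP-led cells. Where the largest hormone was at least 80% of the class hormones, it was 3.69%, 3.23% and 5.39% in the last 3 classes. Where the class hormone took at least 10% of UMIs, it was 7.003% in insulin-led and 4.84% in PP-led cells. Without Gm42418 in the total it was 6.91% in insulin-led cells.

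The share of all UMIs as a mean over cells was 4.75%, 2.84%, 2.43% and 3.22% in the 4 classes, and with the largest hormone at 80% or more it was 4.47%, 2.65% and 2.20% in the first 3. Averaged over cells with at least 10 mitochondrial UMIs, mt-Co2 held 17.2%, mt-Nd2 10.2%, mt-Co1 9.44% and mt-Rnr2 11.2% of the mitochondrial UMIs. Without ribosomal and transfer RNA genes, mt-Co2, mt-Cytb, mt-Nd2 and mt-Co1 held 20.3%, 14.0%, 11.6% and 11.4%. At a fold of 2, 3 of 14 members were lower in glucagon-led cells, a share near the 17.004% of all features. With the largest hormone at 80% or more, the median ratio in PP-led cells was 0.790.

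Other alternatives were chosen after seeing the data. In cells with at least 2000 UMIs the non-hormone share was 6.63% in insulin-led and 3.65% in glucagon-led cells, and the share of all UMIs 4.43% and 2.68%. Without the ribosomal RNAs the non-hormone shares were 5.83%, 3.43%, 3.10% and 4.69%. In cells with Gm42418 under 0.6%, the insulin-led share was 5.39%, 3 members were at least 1.5-fold lower in glucagon-led cells (30.2% of all features) and 1 in PP-led cells (34.3%), and the median ratios were 0.705, 0.575 and 0.849. With the class hormone at 10% of UMIs or more, 8 members were lower in PP-led cells (34.5% of all features). Depth limits mt-Nd6, mt-Atp8, mt-Nd4l and the transfer RNA genes most, with 10 or fewer UMIs in at least 1 class.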

Other observations

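The share of cells with a UMI differed in range between members. With each cell thinned to 1000 UMIs, mt-Co2 was found in 99.0% of insulin-led, 95.7% of glucagon-led, 97.4% of somatostatin-led and 97.1% of PP-led cells, close to saturation in all 4. The 12S gene mt-Rnr1 was found in 63.9%, 43.6%, 35.9% and 41.2% of cells in that order (86.6%, 61.7%, 59.0% and 67.6% before thinning). The complex I gene mt-Nd5 was found in 42.3%, 41.5%, 23.1% and 20.6% (64.3%, 58.5%, 35.9% and 41.2% before thinning). Median depths before thinning were 2652.5, 2261.5, 2169 and 2662.5 UMIs. Every cell type with mitochondria carries these genes, so no class can serve as a background for free RNA.

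The 3 cells with the highest mitochondrial share of non-hormone UMIs were insulin-led, at 21.8%, 22.5% and 22.5%. They held 332, 206 and 464 mitochondrial UMIs of 2474, 1205 and 2997, insulin took 33.4%, 20.1% and 25.3% of their UMIs, and Gm42418 took 0.262%, 0.546% and 0.0970% of the non-hormone UMIs, all under 0.6%. Being single cells of 1 library, they are given as values only.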
